A study of Mus musculus with 14 samples.

Results

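Levels of 8 genes that encode surface antigens and enzymes used to mark mammary stem and progenitor cells were followed in mouse mammary epithelial cells. They were chosen by symbol from the 23284 genes listed in each of the 2 deposited tables, and all 8 are listed in both tables. The genes were Cd44, Cd24a, Epcam, Prom1, Procr, Ly6a, Aldh1a1 and Aldh1a3. EpH4 is a mouse mammary gland epithelial line grown in 10% serum, and EpRas is its H-Ras-transformed derivative, grown in 4% serum. Both lines were left untreated or received treatment with TGF-β3 (1 ng/ml, 48 h), with 2 libraries in each of these 4 groups, and treated below always means treated with TGF-β. In a separate set, EpRas cells carried the control siRNA (siNC) or either of 2 siRNA pairs that target Etv4 and Etv5, each again untreated or treated, and each of these 6 conditions had 1 library. Transformation and serum content cannot be told apart between the lines, and each line stands for a single derivation. The 2 libraries of an untransfected group are described as biological replicates, but whether they came from separate cultures is not given in the sources used here, and p-values measure the spread between these libraries.

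CD44 is a receptor for hyaluronan, CD24 is a mucin-like glycoprotein anchored in the membrane by a lipid, and EpCAM is an adhesion molecule of epithelial cells. Cells that are high in CD44 and low in CD24 are widely taken as stem-like in breast cancer, and in the mouse gland CD24 and EpCAM are used to separate luminal from basal cells. PROCR, the protein C receptor, marks a population of multipotent mammary stem cells, and Ly6a encodes Sca-1, a surface antigen of a part of the luminal cells. PROM1 (CD133) is a membrane protein of cell protrusions, and ALDH1A1 and ALDH1A3 oxidise retinaldehyde to retinoic acid and underlie the aldehyde dehydrogenase assay for progenitor cells.

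Levels are given as FPKM, which relates the fragments of a gene to its length and to all mapped fragments of that library, so that levels can be compared between genes. Of the 8 genes, 5 (Cd44, Cd24a, Epcam, Procr and Ly6a) reached 5 FPKM in 1 or more libraries and entered the tests, and Prom1, Aldh1a1 and Aldh1a3 did not. The depth of the libraries is not stated, but the steps between low values gave relative depths of 0.609 to 1.36 among the untransfected libraries. The keratins Krt8 and Krt18 of simple epithelium lay between 561 and 1361 FPKM and between 868 and 1450 FPKM over the untransfected libraries, and the basal keratin Krt14 lay between 62.2 and 851 FPKM. The basal keratin Krt5 did not exceed 0.0856 FPKM. Of 16 markers of immune, endothelial, stromal, fat and red blood cells, 15 were listed, and 7 of these, with the pan-leukocyte gene Ptprc and the endothelial gene Pecam1 among them, were listed at 0 in all untransfected libraries. The summed level of the 15 genes was 2.91 to 2.99 FPKM in untreated EpH4 cells, 9.54 to 11.2 FPKM in treated EpH4 cells, 6.82 to 8.67 FPKM in untreated EpRas cells and 8.48 to 11.5 FPKM in treated EpRas cells. Among the untransfected libraries, only Csf1r and Cd68 of these, both genes of macrophages, reached 5 FPKM. Csf1r was at 0.185 and 0.103 FPKM in untreated EpH4 cells and at 6.23 and 5.74 FPKM after treatment (limma log2 difference 2.61, adjusted p = 0.000212), and between 0.368 and 1.53 FPKM in EpRas cells. Cd68 was between 0.293 and 2.75 FPKM in the EpH4 libraries and between 3.81 and 7.13 FPKM in the EpRas libraries, which did not pass the test without TGF-β (1.01, adjusted p = 0.186) or with it (1.55, adjusted p = 0.0549). The part of these genes in the results below was not tested. The 2 EpRas libraries with TGF-β were less alike than those of the other groups, with a correlation across genes of 0.91 against 0.96 to 0.98, where genes are not independent replicates.

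The question of the comparison between the lines was what differs in the H-Ras-transformed derivative. Without TGF-β, Cd44 and Procr were higher and Ly6a was lower in EpRas cells compared with EpH4 cells, while the lower levels of Epcam and Cd24a did not pass the test. The test was limma on log2(FPKM + 1) with Benjamini-Hochberg adjustment over the 9100 genes that passed the filter. It called 3 of the 5 tested markers, beside 17.6% of all genes tested. With TGF-β in both lines it called 4 of the 5, with Epcam added, beside 21.3% of all genes tested.

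Cd44 was at 26.4 and 28.9 FPKM in untreated EpH4 cells and at 61.5 and 64.1 FPKM in untreated EpRas cells. After treatment its level was 37.4 and 44.1 FPKM in EpH4 cells and 133 and 90.2 FPKM in EpRas cells. Every EpRas library thus lay above every EpH4 library, and the 4 groups did not overlap. Within a condition, the 2 lines did not overlap for 61% of all genes tested without TGF-β and for 63% with TGF-β. The same shares stand beside the separations of Procr, Ly6a and Epcam below. The share of genes with all 4 groups separate was not computed. The limma log2 difference between the lines was 1.16 (SE 0.21, adjusted p = 0.00999) without TGF-β and 1.41 (SE 0.21, adjusted p = 0.00345) with TGF-β. The call without TGF-β was lost when 1 library was left out in 3 of 8 cases, namely without the untreated EpH4 replicate 1 (adjusted p = 0.0600), the untreated EpRas replicate 1 (adjusted p = 0.0571) or the untreated EpRas replicate 2 (adjusted p = 0.0598), in a range of 0.00309 to 0.0600.

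Procr differed more between the lines than Cd44, the other marker that was higher in EpRas cells. It was at 21.8 and 30.6 FPKM in untreated EpH4 cells, at 31.0 and 27.0 FPKM in treated EpH4 cells, at 80.5 and 81.9 FPKM in untreated EpRas cells and at 166 and 122 FPKM in treated EpRas cells. The lines did not overlap, and only the 2 EpH4 groups overlapped each other. The log2 difference was 1.61 (SE 0.22, adjusted p = 0.00318) without TGF-β and 2.26 (SE 0.22, adjusted p = 0.000464) with TGF-β, and Procr was called without each of the 8 libraries in turn in both comparisons.

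Ly6a had the opposite order. It was at 186 and 175 FPKM in untreated EpH4 cells and at 64.7 and 49.9 FPKM in untreated EpRas cells, a log2 difference of -1.65 (SE 0.35, adjusted p = 0.0185). After treatment its level was 27.1 and 36.4 FPKM in EpH4 cells and 17.7 and 7.74 FPKM in EpRas cells, a log2 difference of -1.34 (SE 0.35, adjusted p = 0.0329). The lines did not overlap in either condition, and in bulk RNA fewer cells with a marker and less of its RNA per cell cannot be told apart. The difference without TGF-β was no longer called when any of the 4 untreated libraries was left out (adjusted p = 0.0640 to 0.101). The difference with TGF-β was not called in 6 of 8 such fits, and without the EpRas replicate 2 with TGF-β it was -0.79 (adjusted p = 0.0644, in a range of 0.00368 to 0.182). It was also not called without the filter on low values (adjusted p = 0.0592) or with only the 2 groups compared (adjusted p = 0.10).

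Epcam was at 293 and 285 FPKM in untreated EpH4 cells and at 531 and 534 FPKM in treated EpH4 cells. In EpRas cells its level was 147 and 90.1 FPKM in untreated and 64.9 and 149 FPKM in treated libraries. All EpRas libraries lay below all EpH4 libraries, and the 2 EpRas groups overlapped. With TGF-β the log2 difference between the lines was -2.42 (SE 0.38, adjusted p = 0.00453), and it was called without each library in turn. Without TGF-β it was -1.32 (SE 0.38, adjusted p = 0.0556), just outside the threshold. It was inside the threshold with the libraries centred on their medians (adjusted p = 0.0480), with only the 2 groups compared (adjusted p = 0.0483) and without replicate 1 or 2 of treated EpRas cells (adjusted p = 0.00975 and 0.0162), in a range of 0.00975 to 0.237 over all alternatives.

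Of the 5 tested markers, Cd24a had the smallest range of group means. It was at 89.5 and 63.5 FPKM in untreated EpH4 cells, at 75.5 and 87.4 FPKM in treated EpH4 cells, at 49.3 and 54.3 FPKM in untreated EpRas cells and at 68.5 and 49.0 FPKM in treated EpRas cells. EpRas libraries lay below EpH4 libraries within each condition. Such a separation of the 2 lines was common, and was found for 61% of all genes tested without TGF-β and for 63% with TGF-β. The log2 difference was -0.54 (95% interval -1.08 to 0.01, adjusted p = 0.158) without TGF-β and -0.48 (95% interval -1.02 to 0.06, adjusted p = 0.182) with TGF-β. It was -0.29 without the untreated EpH4 replicate 1 in the former comparison and -0.24 without replicate 2 of treated EpRas cells in the latter.

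**Figure D1:**
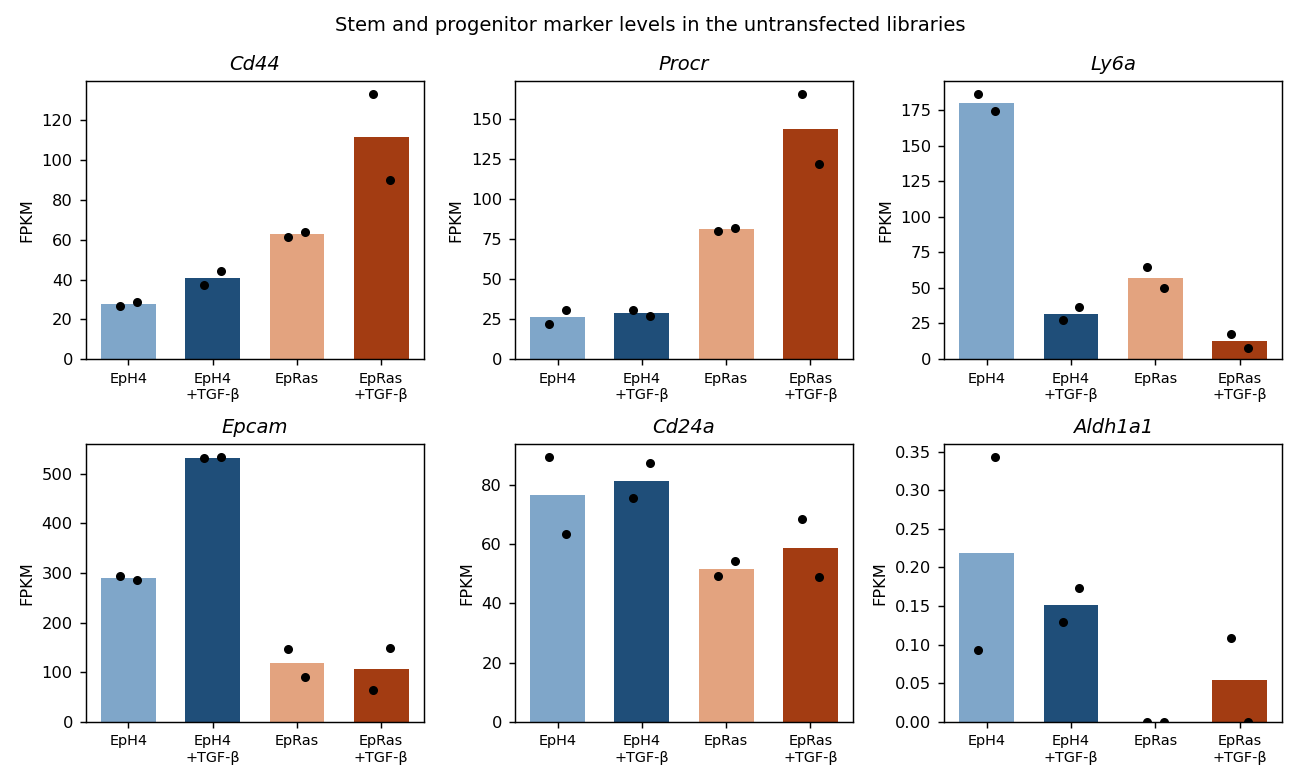
FPKM (vertical axes, each from 0) of 6 markers in the 4 untransfected groups, with bars for the mean of 2 libraries and points for each library. Cd44 and Procr are highest in treated EpRas cells, Ly6a is highest in untreated EpH4 cells, and Aldh1a1 stays under 0.35 FPKM.

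The ratio of Cd44 to Cd24a within a library does not depend on the scaling of that library. It was 0.295 and 0.454 in untreated EpH4 cells and 0.495 and 0.505 in treated EpH4 cells. In EpRas cells it was 1.25 and 1.18 without TGF-β and 1.95 and 1.84 with TGF-β. Cd44 was thus below Cd24a per length in all 4 EpH4 libraries and above it in all 4 EpRas libraries. The ratio was formed after the levels were seen and was not tested.

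The 3 remaining markers were at or near 0. Prom1 and Aldh1a3 were listed at 0 in all 8 untransfected libraries. At the read values estimated from the steps and the longest annotated transcript, a count of 0 allows up to 3 reads, or 0.107 to 0.239 FPKM for Prom1 and 0.127 to 0.283 FPKM for Aldh1a3, which covers counting error only. Aldh1a1 was at 0.0930 and 0.343 FPKM in untreated EpH4 cells, at 0.129 and 0.173 FPKM in treated EpH4 cells, at 0 in both libraries of untreated EpRas cells and at 0.108 and 0 FPKM in treated EpRas cells. By the steps between its values these levels correspond to 1, 5, 1, 2, 0, 0, 1 and 0 reads in that order. A difference between the groups was not detectable at this depth.

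The treatment comparison asked which genes TGF-β changes in each line. Ly6a fell in both lines, and it was the only marker called, 1 of 5 in EpH4 cells beside 9.4% of all genes tested and 1 of 5 in EpRas cells beside 3.82%. In EpH4 cells the log2 change of Ly6a was -2.48 (SE 0.35, adjusted p = 0.00565), and the mean fell from 180 to 31.8 FPKM. In EpRas cells it was -2.18 (SE 0.35, adjusted p = 0.0168), and the mean fell from 57.3 to 12.7 FPKM. Treated and untreated libraries did not overlap in either line, beside 60.6% of all genes tested in EpH4 cells and 39.4% in EpRas cells. The lowest level, 7.74 FPKM, corresponds to about 25 reads at the annotated transcript length. The call in EpH4 cells was lost without the EpH4 replicate 1 with TGF-β (adjusted p = 0.0634, in a range of 0.000805 to 0.0634), and that in EpRas cells without the untreated replicate 1 or 2 (adjusted p = 0.144 and 0.0701, in a range of 0.00313 to 0.144) or with only the 2 groups compared (adjusted p = 0.158).

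Cd44 was higher with TGF-β in every library of both lines, by 0.54 on the log2 scale in EpH4 cells (95% interval 0.05 to 1.03, adjusted p = 0.171) and by 0.79 in EpRas cells (95% interval 0.30 to 1.29, adjusted p = 0.104), and neither difference passed the adjusted threshold. Without replicate 2 of treated EpRas cells, Cd44 passed in EpRas cells (log2 difference 1.07, adjusted p = 0.0310), and without replicate 1 the difference was 0.52 (adjusted p = 0.229), in a range of 0.0310 to 0.392 over the leave-one-out fits. Procr differed by 0.16 in EpH4 cells (adjusted p = 0.719), where the groups overlapped, and by 0.80 in EpRas cells (adjusted p = 0.117), where they did not. Libraries with and without TGF-β did not overlap for 60.6% of all genes tested in EpH4 cells and for 39.4% in EpRas cells. Epcam differed by 0.88 in EpH4 cells (adjusted p = 0.220) and by -0.22 in EpRas cells (adjusted p = 0.842), and with only the 2 EpH4 groups in the fit the former passed (adjusted p = 0.0223, in a range of 0.0223 to 0.545 over the alternatives). Cd24a differed by 0.11 in EpH4 cells (adjusted p = 0.825) and by 0.16 in EpRas cells (adjusted p = 0.811).

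The difference between the effects of TGF-β in the 2 lines was tested as an interaction in the same limma fit. None of the 5 markers was called (0 of 5), beside 0.802% of all genes tested. The smallest unadjusted limma p among the markers was 0.0757, for Procr. The estimate for Epcam was -1.10 (95% interval -2.38 to 0.17, adjusted p = 0.522), and that for Procr was 0.64 (95% interval -0.09 to 1.37, adjusted p = 0.514). Without replicate 1 or 2 of treated EpRas cells the estimate for Epcam was -0.51 or -1.70, and that for Procr was 0.41 without the untreated EpH4 replicate 2 and 0.42 without replicate 1 of treated EpRas cells. For Ly6a it was 0.31 (95% interval -0.85 to 1.46, adjusted p = 0.862). These intervals are wide, so the lines are not shown to respond alike.

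**Figure D2:**
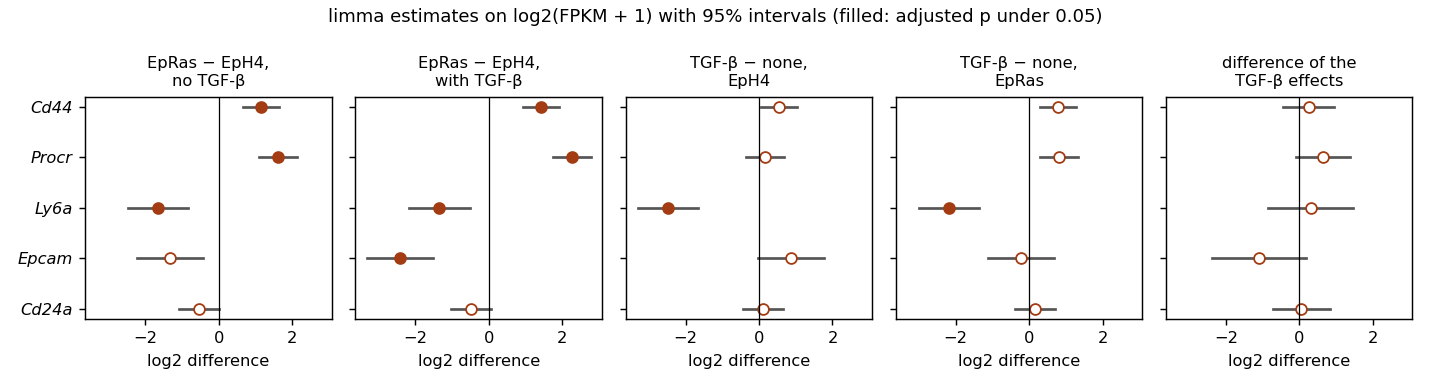
limma log2 differences (horizontal axis) of the 5 tested markers in 5 comparisons, with 95% intervals as lines and filled points where the adjusted p is under 0.05. Cd44, Procr and Ly6a are filled in both comparisons between the lines, Epcam only in that with TGF-β, and Ly6a alone in the treatment comparisons.

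The second set of libraries asked what depends on Etv4 and Etv5, transcription factors of the ETS family. Against siNC, pair 1 and pair 2 left 20.2 and 48.5% of the level of Etv4 without TGF-β and 19.6 and 29.4% with TGF-β. For Etv5 they left 18.3 and 14.2% without TGF-β and 23.2 and 22.5% with TGF-β, so that the targeted genes were lower in all 4 libraries. The siRNA against Etv5 whose sequence the labels give, which belongs to pair 2, is shown because it identifies the reagent.
Etv5 siRNA of pair 2: UUAAAUUCCAUGCCUCGGCCAGUCC
This strand is the reverse complement of 25 bases in exon 11 of 13 of 2 GENCODE transcripts of Etv5, all in the coding sequence, at chr16:22392674-22392698 of mm10 on the minus strand, and matched no other gene's transcripts perfectly.

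With 1 library for each condition, differences in these libraries have no replicate check and no test was made. The summed level of the 15 markers of other cell types for siNC, pair 1 and pair 2 in that order was 10.4, 5.09 and 8.89 FPKM in untreated cells and 20.4, 7.53 and 11.5 FPKM in treated cells. Of these, 6 were at 0 in all 6 libraries, and only Csf1r (up to 5.01 FPKM), Cd68 (up to 6.52 FPKM) and the stromal gene Pdgfra (up to 6.79 FPKM) reached 5 FPKM, each highest with siNC and TGF-β. Their part in the differences below was not tested. Without TGF-β, Cd44 and Procr were lower and Ly6a was higher with the Etv4/5 siRNAs. Counted from the mean of both pairs on log2(FPKM + 1), 3 of the 5 markers passed a 2-fold difference without TGF-β, beside 7.11% of the 9094 genes that passed the filter in this table. With TGF-β, 2 of the 5 passed, beside 6.55%.

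Procr was at 114 FPKM with siNC and at 28.3 and 27.1 FPKM with pair 1 and pair 2. After treatment its level was 155 FPKM with siNC and 64.5 and 36.4 FPKM with the pairs. All 4 libraries with Etv4/5 siRNAs lay below both siNC libraries, and Procr was more than 2-fold lower with each pair in each condition. The log2 ratio of the mean of the pairs to siNC was -2.0 without and -1.60 with TGF-β. The interval that Cuffdiff gives without TGF-β, 60.9 to 167 FPKM for siNC, did not overlap those of pair 1 (13.5 to 43.1 FPKM) and pair 2 (12.7 to 41.5 FPKM). With TGF-β the interval of siNC, 82.5 to 227 FPKM, overlapped that of pair 1 (33.9 to 95.2 FPKM) and not that of pair 2 (18.0 to 54.8 FPKM).

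Cd44 was at 128 FPKM with siNC and at 41.2 and 58.6 FPKM with pair 1 and pair 2. After treatment its level was 179 FPKM with siNC and 104 and 78.0 FPKM with the pairs. The log2 ratio was -1.34 without TGF-β, with each pair past 2-fold, as were 2.49% of all genes in the lower direction. With TGF-β it was -0.97, with -0.77 for pair 1 and -1.19 for pair 2, so that only pair 2 passed. The intervals that Cuffdiff gives for siNC and the pairs overlapped for Cd44 in both conditions, 53.8 to 202 FPKM for siNC against 21.7 to 60.8 FPKM and 30.3 to 86.9 FPKM without TGF-β.

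Ly6a moved the other way. It was at 51.3 FPKM with siNC and at 87.5 and 128 FPKM with the pairs without TGF-β, a log2 ratio of 1.05, with 0.76 for pair 1 and 1.30 for pair 2. After treatment its level was 3.70 FPKM with siNC, about 39 reads, and 19.0 and 19.6 FPKM with the pairs, a log2 ratio of 2.11. The last ratio depended on the pseudocount and was 2.35 with 0.1 and 1.48 with 5. Each pair was past 2-fold higher with TGF-β, as were 1.33% of all genes. The Cuffdiff intervals of siNC and the pairs overlapped in both conditions, 23.8 to 78.9 FPKM against 43.7 to 131 FPKM and 66.2 to 189 FPKM without TGF-β, and 0 to 8.14 FPKM against 6.01 to 32.0 FPKM and 6.33 to 32.9 FPKM with TGF-β.

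Epcam was at 133 FPKM with siNC and at 112 and 111 FPKM with the pairs, and with TGF-β at 222, 156 and 153 FPKM. Its log2 ratios were -0.26 and -0.52, under the 2-fold limit. The levels of Cd24a, in the same order, were 103, 76.8 and 79.8 FPKM in untreated cells and 99.4, 106 and 92.9 FPKM in treated cells, log2 ratios of -0.40 and -0.00. The ratio of Cd44 to Cd24a was 1.24 with siNC, 0.537 with pair 1 and 0.734 with pair 2, and with TGF-β it was 1.80, 0.987 and 0.840. Cd44 was therefore above Cd24a only in the 2 siNC libraries. Prom1 was listed at 0 in all 6 libraries, Aldh1a1 was at 0.0541 FPKM with pair 1 without TGF-β and at 0 in the other 5, and Aldh1a3 was at 0.0484 FPKM with siNC and TGF-β and at 0 in the other 5.

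The same libraries give the effect of TGF-β within each siRNA, and the siNC libraries are shared with the comparisons above. Ly6a was at 51.3 and 3.70 FPKM without and with TGF-β in siNC cells, at 87.5 and 19.0 FPKM with pair 1 and at 128 and 19.6 FPKM with pair 2. It was the only marker past 2-fold with siNC, where 5.74% of all genes were, and with pair 2, where 7.29% were. With pair 1, where 6.93% were, Cd44 (41.2 and 104 FPKM) and Procr (28.3 and 64.5 FPKM) also passed 2-fold. With pair 2 Cd44 was at 58.6 and 78.0 FPKM and Procr at 27.1 and 36.4 FPKM, so the pairs differed here.

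**Figure D3:**
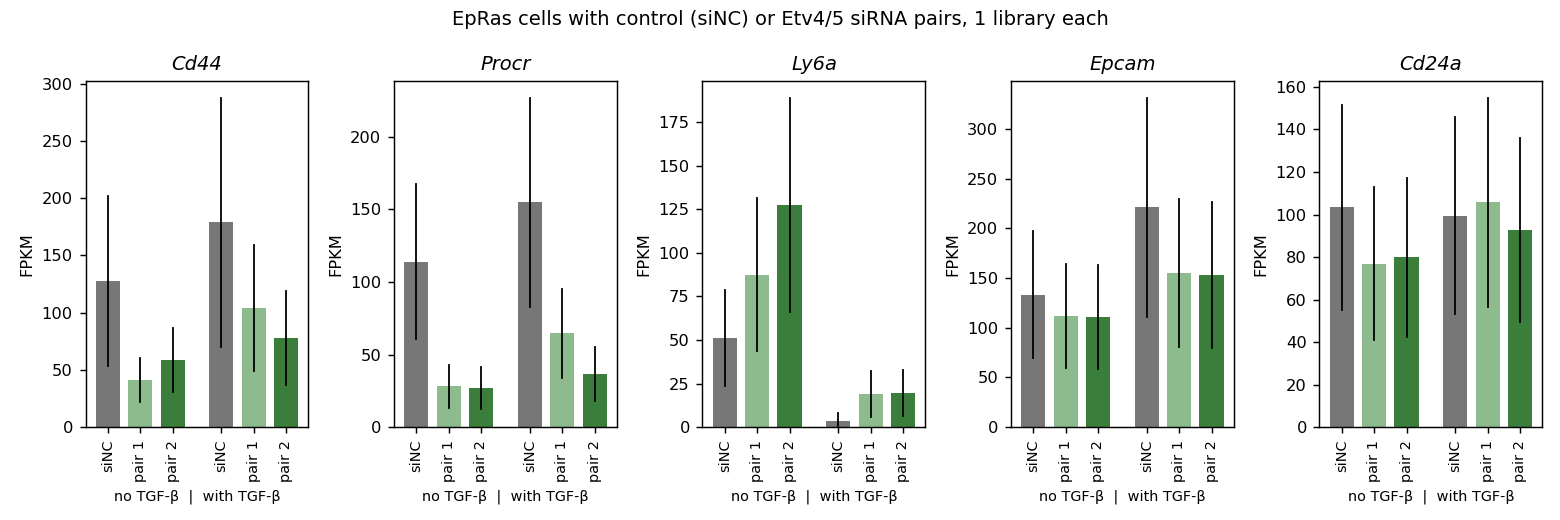
FPKM (vertical axes, each from 0) of the 5 tested markers in EpRas cells with siNC or either Etv4/5 siRNA pair, without and with TGF-β, with bars for 1 library each and lines for the interval that Cuffdiff gives. Procr with the pairs is below siNC in both conditions, and Ly6a is above it.

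**Figure D4:**
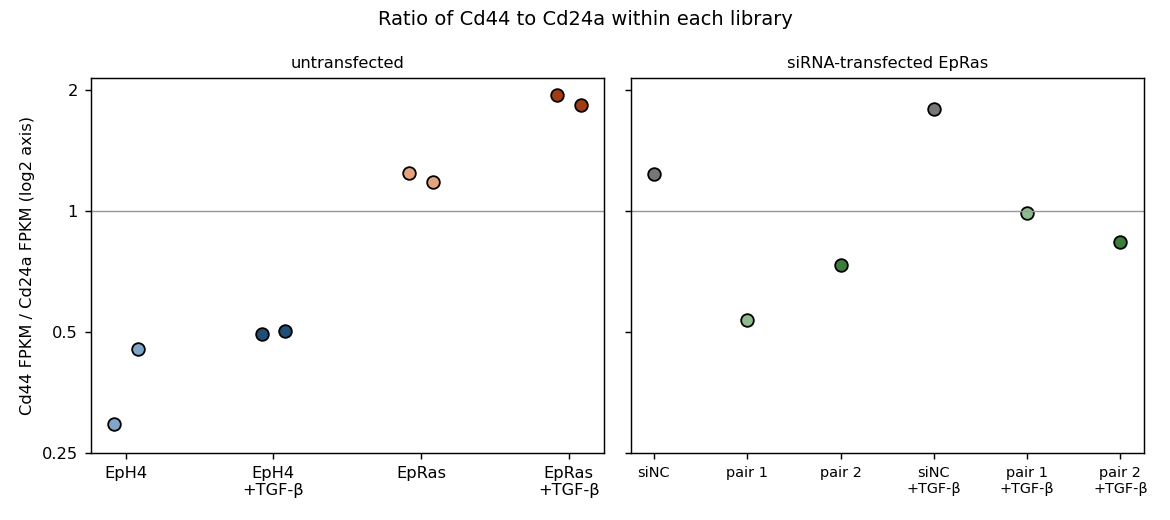
Ratio of Cd44 to Cd24a FPKM (log2 axis) in each untransfected library and each siRNA library, with points for single libraries and a line at 1. EpRas libraries and siNC libraries lie above 1, and EpH4 libraries and libraries with Etv4/5 siRNAs lie below 1.

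Because Cd44 and Procr were both higher in EpRas cells and lower with the Etv4/5 siRNAs, the 250 bases before their starts in RefSeq on GRCm38.p6 were searched, and the part of each that lies before the start in GENCODE is shown. Both genes are protein-coding genes of chromosome 2 in the GENCODE annotation, Cd44 at chr2:102811141-102901665 on the minus strand and Procr at chr2:155751117-155755471 on the plus strand. Of the 8 genes, 5 had an entry in the promoter table. Capitals mark matches on either strand to GGAA, the core of ETS sites, and to TGANTCA, an AP-1 site. The windows are chr2:102901666-102901915 (minus strand) and chr2:155750967-155751216 (plus strand). GENCODE starts Procr earlier than RefSeq, so that the last 100 bases of its window lie inside the GENCODE gene and only the first 150 are printed, up to chr2:155751116.
Cd44: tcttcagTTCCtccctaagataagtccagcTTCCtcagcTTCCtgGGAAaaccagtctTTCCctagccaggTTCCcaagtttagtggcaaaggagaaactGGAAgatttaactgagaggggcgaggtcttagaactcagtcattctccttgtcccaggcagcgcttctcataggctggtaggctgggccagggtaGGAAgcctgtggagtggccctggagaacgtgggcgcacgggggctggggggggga
Procr: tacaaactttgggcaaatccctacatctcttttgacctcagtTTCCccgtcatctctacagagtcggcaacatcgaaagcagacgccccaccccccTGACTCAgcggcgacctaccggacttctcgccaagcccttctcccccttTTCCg
The window of Cd44 holds 8 matches to GGAA and that of Procr holds 3, of which 2 are in the printed stretch. At least 1 match is in 93.4% of the 32851 windows of the same length. The shares of windows with as many as 8 or 3 matches were not computed. The window of Procr holds 1 match to TGANTCA, which starts at base -154 from the RefSeq start and at base -54 from the GENCODE start, and 6.75% of all windows hold at least 1. Neither window holds the longer ETS letters GGAAGT, which overlap with GGAA and are in 19.7% of all windows, or the SMAD letters CAGACA, which are in 17.1%. The other markers with an entry were Epcam, whose window holds none of these 4 letter strings, and Prom1 and Aldh1a1, which were at or near 0 and have 2 windows each. The Prom1 windows hold 3 and 7 matches to GGAA, each with 1 match to TGANTCA, and the second holds 1 to GGAAGT. The Aldh1a1 windows hold 5 and 1 matches to GGAA, and the first holds 1 to TGANTCA. A match is a description of the letters and not of a bound site.

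The remaining genes of these pathways were taken from written lists. Of the 46 calls given from these lists, 22 held without each of the 8 libraries in turn. The others were lost without at least 1 library, namely between the untreated lines those of Cd200, Itgb4, Met, Aldh3a1, Aldh7a1, Adh7, F2r, Esrp1, Ly6c1, Plaur and Acta2, for TGF-β in EpH4 cells those of Aldh2, Adh7, Fhl2, Prom2 and Krt14, for TGF-β in EpRas cells those of Cd200, Crabp2, Prom2, Msn, Lypd3, Gata3 and Krt14, and for the difference of the effects that of Krt14. For TGF-β in EpRas cells, the calls of Krt14 and Msn were lost in all 8 of these fits, and those of Crabp2 and Gata3 in 7 of 8. The calls of Itgb4 and Aldh7a1 between the untreated lines, and of Aldh2 and Adh7 for TGF-β in EpH4 cells, were lost in 6 of 8. Under the other settings 20 of the 46 calls were lost in at least 1, and 18 held under all settings of both kinds. The calls for TGF-β in EpRas cells of Itga2, Itga5 and Has2 (each adjusted p = 0.0521) and of Adh7 (adjusted p = 0.0549) held without each library but were lost with only the 2 groups compared. A pseudocount of 0.1 or 5 moved the log2 differences of the low genes Acta2, Adh7, Aldh3a1, Cd200, Csf1r, F2r, Krt19, Prom2 and Trp63 by more than 1.5 times in at least 1 comparison, without a change of sign.

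Of 22 other surface antigens used to sort mammary cells, 12 were tested, and 5 were called higher and 1 lower in EpRas cells without TGF-β, beside 17.6% of all genes called, with a median log2 difference of 0.54 beside 0.00 over all genes tested. With TGF-β in both lines, 3 were called higher and 1 lower, beside 21.3% of all genes, and the median was -0.21. Cd14, a co-receptor for lipopolysaccharide that is used to mark luminal progenitors, was at 10.5 and 12 FPKM in untreated EpH4 cells and at 32.4 and 29.7 FPKM in untreated EpRas cells (log2 difference 1.39, adjusted p = 0.00308). Itga6 (CD49f), an integrin subunit of basal cells and progenitors, was at 10.6 and 9.75 FPKM in EpH4 cells and at 23.0 and 29.6 FPKM in EpRas cells (1.28, adjusted p = 0.00332). Itga5, a subunit of the fibronectin receptor, and Cd200 were higher by 1.12 and 1.00 (adjusted p = 0.00450 and 0.0154). The fifth was the laminin receptor subunit Itgb4 (0.77, adjusted p = 0.0346), and the antigen called lower was Met, the receptor of hepatocyte growth factor (-0.90, adjusted p = 0.00970).

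In response to TGF-β, 4 of the 12 antigens rose and 0 fell in EpH4 cells, and 3 rose and 0 fell in EpRas cells, beside a background of 6.48% of all genes rising in EpH4 cells and 1.9% in EpRas cells. Itga2, a collagen receptor subunit, rose by 2.31 in EpH4 cells and by 2.17 in EpRas cells (adjusted p = 0.000494 and 0.00143). Itga5 rose by 2.45 and 1.91 (adjusted p = 0.000242 and 0.00143), and Cd200 rose by 2.82 and 1.25 (adjusted p = 0.000306 and 0.0174). Itgb1, the integrin subunit that pairs with Itga2 and with Itga5, was higher by 0.79 and 0.91, which did not pass the test (adjusted p = 0.105 and 0.116). Itga5 was at 57.3 FPKM with siNC and 188 FPKM with siNC and TGF-β, and at 302 and 252 FPKM with the pairs and TGF-β. Its levels with the pairs without TGF-β are not given here.

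**Figure D5:**
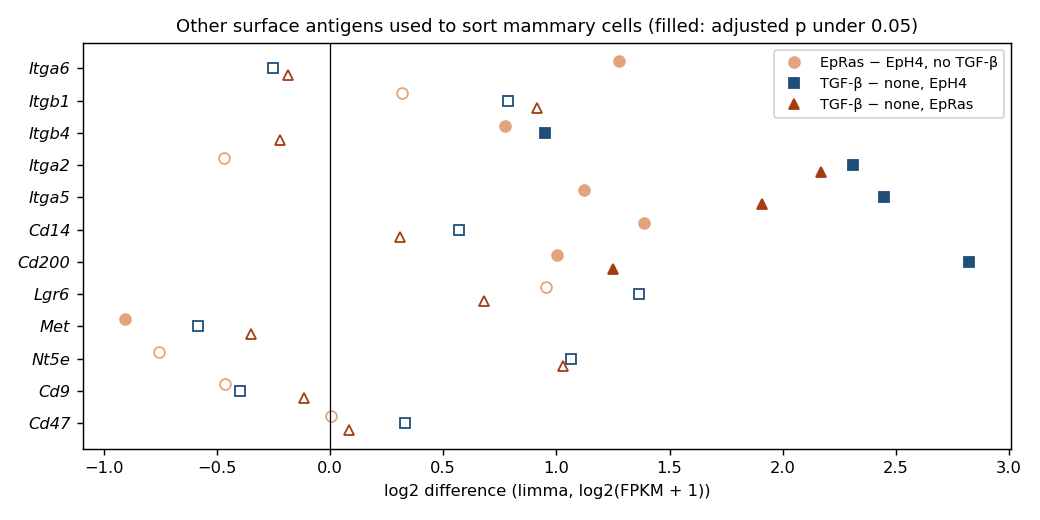
limma log2 differences (horizontal axis) of the 12 other surface antigens tested, for EpRas against EpH4 cells without TGF-β and for TGF-β in each line, with filled points where the adjusted p is under 0.05. Itga2, Itga5 and Cd200 are filled for TGF-β in both lines.

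Of 22 partners and ligands of the markers, 17 were tested, and 1 was higher and 4 were lower in untreated EpRas cells, beside 17.6% of all genes called, with a median log2 difference of -0.07. The lower genes included the tight junction gene Cldn7, whose product binds EpCAM (log2 difference -1.73, adjusted p = 0.000437), Esrp1, a splicing factor that favours the epithelial forms of Cd44 (-1.25, adjusted p = 0.00958), and the prominin Prom2 (-1.13, adjusted p = 0.00386). F2r, the thrombin receptor PAR1 that is cut by activated protein C bound to PROCR, was higher by 1.56 (adjusted p = 0.0131). The levels of Cd44 are for the gene as a whole, and its splice forms were not analysed here.

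With TGF-β, 3 partners rose and 1 fell in EpH4 cells, beside 9.4% of all genes called, and 2 rose and 1 fell in EpRas cells, beside 3.82%. Has2, a synthase of the CD44 ligand hyaluronan, rose by 2.90 in EpH4 cells and by 2.86 in EpRas cells (adjusted p = 0.000683 and 0.00144). It was at 2.23 and 2.92 FPKM in untreated EpH4 cells, at 24.6 and 26.6 FPKM after treatment, at 2.83 and 3.42 FPKM in untreated EpRas cells and at 37.7 and 22.2 FPKM after treatment. The prominin Prom2 fell by 1.03 and 1.00 (adjusted p = 0.00871 and 0.0168), and it was the prominin with reads in these cells, at 6.10 and 6.37 FPKM in untreated EpH4 cells. Fhl2 rose by 1.16 in EpH4 cells (adjusted p = 0.00625), and Msn, moesin, which links CD44 to the cytoskeleton, was called higher by 0.83 in EpRas cells (adjusted p = 0.0335).

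Of 13 other Ly6 family genes, 12 were listed and 4 were tested. Ly6c1, a neighbour in the family of Ly6a, was at 26.4 and 19.4 FPKM in untreated EpH4 cells, at 3.28 and 3.18 FPKM in treated EpH4 cells, at 10.3 and 6.26 FPKM in untreated EpRas cells and at 3.37 and 1.58 FPKM in treated EpRas cells. It was lower in untreated EpRas cells (log2 difference -1.38, adjusted p = 0.0240) and fell with TGF-β in EpH4 cells (-2.48, adjusted p = 0.00337), and in EpRas cells its change of -1.44 did not pass the test (adjusted p = 0.0565). In the siRNA libraries of 1 treatment condition, Ly6c1 was at 6.44 FPKM with siNC and at 19.7 and 20.4 FPKM with the pairs. The other condition is not given here, and all 6 siRNA libraries lay between 0.956 and 20.4 FPKM. Genes of this family are similar in sequence, and how shared reads were split in the deposited values is not given in the sources used here, so the values of Ly6a and Ly6c1 are uncertain to that extent. Ly6e lay between 448 and 614 FPKM over the untransfected libraries and was called in none of the comparisons tested there. Plaur, the urokinase receptor, was higher in untreated EpRas cells (1.05, adjusted p = 0.00840), and Lypd3 fell with TGF-β in EpRas cells (-1.26, adjusted p = 0.00783).

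Of 17 other aldehyde dehydrogenases, 9 were tested, and Aldh1a2 was listed at 0 in all libraries. The mitochondrial Aldh2 was the most highly expressed of the list, at 245 to 617 FPKM over the untransfected libraries. It fell with TGF-β in EpH4 cells (log2 difference -0.68, adjusted p = 0.0473), while its change of -0.61 in EpRas cells did not pass (adjusted p = 0.115). Aldh3a1 was at 4.77 and 4.75 FPKM in untreated EpH4 cells and at 9.51 and 7.33 FPKM in untreated EpRas cells (0.70, adjusted p = 0.0281). It was listed at 0 in both EpH4 libraries with TGF-β and at 0.142 and 0 FPKM in treated EpRas cells, and was called lower in both lines (adjusted p = 0.000217 and 0.000231). With siNC it was at 49.1 FPKM without and 6.95 FPKM after treatment, and all 6 siRNA libraries lay between 0.280 and 60.7 FPKM. Aldh7a1 was lower in untreated EpRas cells (-0.59, adjusted p = 0.0461).

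Of 18 genes for the handling and receptors of retinoids, 9 were tested. Crabp2, which carries retinoic acid to its receptors, was at 163 and 135 FPKM in untreated EpH4 cells and at 24.8 and 22.4 FPKM in untreated EpRas cells (log2 difference -2.60, adjusted p = 0.000354), and was called lower with TGF-β in EpRas cells (-1.15, adjusted p = 0.0335). Adh7, an alcohol dehydrogenase that oxidises retinol, was higher in untreated EpRas cells (0.78, adjusted p = 0.0241) and fell with TGF-β in EpH4 cells (-0.76, adjusted p = 0.0394) and in EpRas cells (-1.63, adjusted p = 0.00347).

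Of 17 keratins and regulators of the mammary epithelium, 8 were tested. The luminal keratin Krt19 was listed at 0 in all 4 EpH4 libraries and was at 37.4 and 29.5 FPKM in untreated EpRas cells (adjusted p = 2.29e-05). The basal regulator Trp63 was at 7.37 and 8.60 FPKM in untreated EpH4 cells and at 0 and 0.197 FPKM in untreated EpRas cells (adjusted p = 4.11e-05). Krt14 was lower in untreated EpRas cells (log2 difference -1.69, adjusted p = 0.000545), and it rose with TGF-β in EpH4 cells (1.20, adjusted p = 0.00409) and was called lower in EpRas cells (-0.78, adjusted p = 0.0420), with a difference between the lines of -1.98 (adjusted p = 0.0127). Acta2, smooth muscle actin, rose with TGF-β in EpH4 cells (2.81, adjusted p = 0.000344) and was called higher in untreated EpRas cells by 0.76 (adjusted p = 0.0422). The latter call was lost in 6 of 7 other settings and in 5 of 8 leave-one-out fits, and the difference ran from 0.23 to 1.82 with the pseudocount and was 0.48 without the untreated EpH4 replicate 1 (adjusted p = 0.167). Gata3, a luminal regulator, was called lower with TGF-β in EpRas cells (-1.0, adjusted p = 0.0332).

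The genes whose levels were most like those of each marker were read from Pearson's r of log2(FPKM + 1) over the 8 untransfected libraries, which fall into 4 groups, so that r largely reflects group differences. For Cd44 they included Fam69a, with r of 0.98. For Procr they were Gjc1, Nup88 and Lrrk2, with r of 0.99, 0.99 and 0.98. For Ly6a they were S100a14, Tctn1 and Trpv4, with r of 0.97, 0.97 and 0.96. Epcam was most like Lsr, Wdr45 and Uba1, each with r of 0.99, and Cd24a was most like Ly6e, Srp72 and Atp13a3, with r of 0.98, 0.97 and 0.97. Among the markers, Cd44 and Procr had an r of 0.96, Epcam and Procr of -0.88, and Cd44 and Ly6a of -0.78.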

How the data were processed

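The series holds 14 RNA-seq libraries of EpH4 and EpRas cells. Per the labels, polyA RNA was made into directional libraries and sequenced on the Ion Proton, and the untransfected and siRNA libraries were processed independently. The submitters' processing notes name TopHat2 2.0.11, Bowtie2, Cuffdiff of Cufflinks 2.2.0 and mm10. The authors deposited 2 tables of FPKM with the interval of Cuffdiff for each value, which come from separate runs, and every test stays within its table. All columns were assigned to samples (0 unused).

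Genes with OK status and at least 5 FPKM in 1 library were kept (9100 untransfected, 9094 siRNA). The 4 untransfected groups entered a single limma fit (limma 3.58.1, R 4.3.3) on log2(FPKM + 1), with 1 mean per group, no block, and Benjamini-Hochberg adjustment over all genes tested (threshold 0.05). Fold changes on this scale understate those of low genes. Tested on simulated data for the comparison of the lines without TGF-β, with 9100 genes, it called 33 of 50 genes changed by 1 on the log2 scale and 50 of 50 changed by 3. It also called 4 unchanged genes. The changed genes were drawn from those with a mean log2(FPKM + 1) above 3, with independent noise, so low genes were not covered. In the siRNA libraries, the log2 ratio of the mean of the pairs to siNC was computed with a pseudocount of 1 and set against a 2-fold limit. Reads were estimated from the steps between FPKM of low genes and are approximate. Alternatives were other pseudocounts and filters, other fits, a replicate block, median centring, leaving out each library, and each siRNA pair alone.

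All 8 markers are given, and from each other list up to 4 genes called between the untreated lines and up to 3 called for TGF-β in a line, by the size of the change. Itgb1, Ly6e and Cd68, Itgb4, Met and Prom2 between the untreated lines, the siRNA values of list genes, and the interaction of Krt14 were added after their values were seen. Some genes that these rules select are not reported here. The markers and lists were chosen with earlier results of these data known. Positions are from GENCODE M21 on mm10 and promoters from RefSeq on GRCm38.p6.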

Additional observations from a re-analysis of the deposited data

How the results depend on the processing

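Cd44 and Procr kept their higher level in EpRas cells, and Ly6a kept its lower level in EpRas cells and with TGF-β, under all alternatives run, although calls of Cd44 and Ly6a were lost under the alternatives named beside them. Without 1 library in turn, the markers called ranged from 1 to 4 between the untreated lines, 3 to 4 between the lines with TGF-β, 0 to 1 for TGF-β in EpH4 cells and 0 to 2 in EpRas cells, and was 0 for the difference of the effects. Over the same fits the genes called ranged from 736 to 2104, from 816 to 2370, from 242 to 1153, from 135 to 407 and from 11 to 133, beside 1598, 1935, 855, 348 and 73. With only the 2 groups compared, 2 markers and 866 genes were called for TGF-β in EpH4 cells. In EpRas cells, 0 markers and 45 genes were called. The count for the difference of the effects was 117 genes without a filter and 45 with a trend in the variance.

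Replicate numbers were not used to pair the libraries. The deviations of same-numbered libraries correlated by -0.35 to 0.08 over 6 pairs of groups, which cannot exclude a shared culture or run. The lowest value was that of untreated against treated EpRas cells. Epcam in EpRas cells was at 147 and 149 FPKM in the libraries of relative depth 0.609 and 0.667. It was at 90.1 and 64.9 FPKM in those of 1.13 and 0.858, and a link was not tested. With the replicate block, 547 genes were called for TGF-β in EpH4 cells, 222 in EpRas cells and 31 for the difference, and no marker changed its call. Without 1 library, values that did not pass the test changed sign. These were the effects of TGF-β on Procr in EpH4 cells (-0.0761 to 0.391), on Cd24a in EpH4 cells (-0.14 to 0.35) and in EpRas cells (-0.0765 to 0.397) and on Epcam in EpRas cells (-0.82 to 0.37), and the difference of the effects for Cd24a (-0.19 to 0.30), Cd44 (-0.0239 to 0.533) and Ly6a (-0.24 to 0.86). With pair 1 alone the log2 ratio of Cd24a to siNC with TGF-β was 0.0881. The cause was not tested. Reads at low levels limit Aldh1a1, Aldh1a3 and Prom1.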
